A study of Mus musculus with 6 samples.

Results

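The colony-stimulating factors (CSFs) are the secreted proteins that keep macrophages and granulocytes alive, make them multiply and set their state. Their 3 genes (Csf1, Csf2 and Csf3) and the 5 genes of their receptor chains (Csf1r, Csf2ra, Csf2rb, Csf2rb2 and Csf3r) were taken by name from the deposited expression table, which held 54532 genes, and 8 of 8 were found. RNA of mouse peritoneal macrophages was sequenced in 3 groups of 2 libraries. Control cells were untreated. Model cells received lipopolysaccharide (LPS, the bacterial cell wall component sensed by TLR4) at 500 ng/mL for 5.5 h and then ATP at 2 mM for 0.5 h, which together prime and trigger the NLRP3 inflammasome. MUS cells were treated as Model cells and in addition with 50 µM muscone, the macrocyclic ketone of musk, from 5 h after LPS and thus 0.5 h before ATP. All cells were wild type, and the study's methods describe them as taken from male C57BL/6J mice of 6 to 8 weeks, 5 days after 1 mL of 3% thioglycolate was injected to draw macrophages into the peritoneum. No group received LPS without ATP or muscone alone, so the part of each agent in a Model value cannot be told apart. Nothing states that the libraries of a group came from separate animals or cultures, and the p-values then measure only the spread between these libraries, which may be technical.

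CSF1 (M-CSF, encoded by Csf1) signals through the receptor tyrosine kinase CSF1R, on which most tissue macrophages depend for survival. GM-CSF (Csf2) binds a specific alpha chain, CSF2RA, which pairs with the common beta chain CSF2RB and signals through JAK2 and STAT5. The mouse also has Csf2rb2, a copy of the beta chain gene whose product works with the IL-3 receptor. G-CSF (Csf3) acts through CSF3R and drives the production and release of neutrophils. In macrophages, Csf2 and Csf3 are known as genes that are silent at rest and switched on by TLR ligands, while Csf1r, Csf2ra and Csf2rb are part of the resting cell's equipment.

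The messenger RNAs of the family differ in their 3′ untranslated regions (UTRs), where repeats of the pentamer ATTTA mark many short-lived cytokine transcripts. For each gene 1 transcript was taken from the GENCODE M21 annotation (GRCm38), that with the longest coding sequence. The UTRs of other transcripts were not searched. In these transcripts, the 3′ UTR of Csf2 held 9 ATTTA pentamers within 317 bases, that of Csf3 held 6 within 669 bases, that of Csf1 held 4 within 2111 bases and that of Csf1r held 3 within 1669 bases. Csf2ra, Csf2rb, Csf2rb2 and Csf3r held 0. Csf2 and Csf3 thus stood apart, while Csf1 and Csf1r were alike at 1.89 and 1.80 pentamers per kilobase. Over the 8507 tested genes with an annotated 3′ UTR, the median was 1 pentamer. More pentamers per kilobase than in Csf2 were found in 0.0353% of them, and more than in Csf3 in 1.61%. The longer motif TTATTTATT occurred 4 times in Csf2, and 7.24% of these genes held it at least once. The densest 30 bases of each of these 2 UTRs are given here on the strand of the transcript and with the pentamers in capitals. That of Csf2 lies at chr11:54247329-54247358 on the minus strand and that of Csf3 at chr11:98702984-98703013 on the plus strand.
Csf2: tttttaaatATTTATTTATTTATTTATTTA
Csf3: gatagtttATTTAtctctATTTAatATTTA

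Promoter sequence from RefSeq (GRCm38.p6) was matched for 5 of the 8 genes (Csf1, Csf2, Csf2ra, Csf2rb2 and Csf3r), and the 250 bases before the start were searched on both strands for the 5 motifs named here. The Csf1 and Csf3r windows each held 1 match to the NF-kB consensus, starting 154 and 129 bases before the start of transcription, and 7.25% of 32851 windows of the same length held this motif. The Csf2ra window held 1 match to the cAMP response element TGACGTCA, which 1.55% of windows held. The windows of Csf2 and Csf2rb2 held none of the motifs, and no window held the AP-1 motif TGANTCA (6.75% of windows), the PU.1 motif GAGGAAGT (2.44%) or the TATA motif TATAAA (12.4%). The RefSeq starts of Csf2 and Csf3r lay 232 and 109 bases from those in the deposited table. For Csf2 the RefSeq start lay upstream, so the 232 bases directly before the start in the deposited table were not searched. The lack of a match in the Csf2 window therefore does not cover those bases. A match describes letters only and no binding was measured. The Csf1 window is shown because Csf1 was the ligand gene with the highest level in Control. It covers chr3:107760470-107760719 on the minus strand, with the NF-kB match, here read on the opposite strand, in capitals.
Csf1: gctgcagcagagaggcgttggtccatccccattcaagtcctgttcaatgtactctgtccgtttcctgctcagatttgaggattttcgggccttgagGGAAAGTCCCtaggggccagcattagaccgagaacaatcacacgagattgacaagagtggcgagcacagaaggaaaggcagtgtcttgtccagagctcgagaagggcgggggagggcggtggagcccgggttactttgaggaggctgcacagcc

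The pair Csf2rb and Csf2rb2 raises the question of whether short reads can tell the copies apart. Csf2rb (chr15:78325752-78353847, plus strand) and Csf2rb2 (chr15:78282507-78305721, minus strand) lie 20031 bases apart. Their coding sequences were 95.3% identical over 2629 aligned bases, with a longest identical run of 242 bases. Of all stretches of 50 bases in the exons, 12.3% of those in Csf2rb and 18.9% of those in Csf2rb2 occurred in another gene, nearly all of them in the partner. How reads that fit both genes were counted is not stated, and the 2 levels are therefore uncertain by an amount that these shares do not give. The 90 bases where the coding sequences differ most, at coding positions 308 to 397 of Csf2rb and 311 to 400 of Csf2rb2, are shown with the 16 mismatched bases in capitals.
Csf2rb: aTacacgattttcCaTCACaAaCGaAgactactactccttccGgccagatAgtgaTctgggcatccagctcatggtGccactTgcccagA
Csf2rb2: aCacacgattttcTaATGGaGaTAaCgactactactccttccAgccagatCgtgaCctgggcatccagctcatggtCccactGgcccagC

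Of the other members, Csf3r shared 10.5% of its stretches of 50 bases with other genes, 8.84% with the pseudogene AC105061.2, and the remaining 5 members shared 0. Csf2 (chr11:54247271-54249667, minus strand) overlaps the antisense gene Gm12223, and Csf1r (chr18:61105572-61132149, plus strand) overlaps Hmgxb3 on the opposite strand. Whether counting used the strand is not stated, so reads of these partners could not be separated. The other genes lie at chr3:107741048-107760469 (Csf1, minus strand), chr11:98701263-98703629 (Csf3, plus strand), chr19:61224402-61228418 (Csf2ra, minus strand) and chr4:126024550-126044440 (Csf3r, plus strand).

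The libraries held 15526321 to 17135442 fragments on genes, recovered as whole numbers from the FPKM values (fragments per kilobase of exon, scaled for the size of the library). Library scale and detection were uneven. The authors' per-million scale was 1.34 and 1.45 times the fragment total in the Control libraries and 0.909 to 0.998 times in the other 4, and Model replicate 1 had 24906 genes with at least 1 fragment against at most 19200 elsewhere. The macrophage markers were present (6 of 6 tested, with Lyz2 at 7275 to 12007 FPKM). Of 9794 genes tested with limma on log2(FPKM + 1), 1475 were called in Model vs. Control (930 higher, 545 lower), 0 in MUS vs. Model (825 at an unadjusted p under 0.05, smallest limma adjusted p = 0.139) and 1980 in MUS vs. Control (1107 higher, 873 lower), a call being an adjusted p of at most 0.05 with a log2 fold change beyond 1 either way. With fragment totals as the scale, the median of all genes shifted by -0.44 in Model vs. Control and the split became 646 higher and 1554 lower. With voom it was 684 and 2050, and with quantile normalization 707 and 715. In MUS vs. Control the splits were 738 and 1953, 758 and 2386, and 885 and 1102.

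The 3 ligand genes rose with LPS and ATP and the receptor gene Csf1r fell. Of the 8 members, 4 were called in Model vs. Control, 3 higher and 1 lower, against 15.1% of all genes tested (9.5% higher and 5.56% lower). The values of the 2 groups did not overlap for 6 members, 5 of them higher in Model, where 61.1% of all genes did not overlap (32.6% higher and 28.5% lower). This count depends on the scale. With fragment totals, 3 members lay higher (Csf1, Csf2 and Csf3) and 3 lower (Csf1r, Csf2ra and Csf2rb2) without overlap, against 15.6% and 53% of all genes, and Csf2rb and Csf3r overlapped. The median log2 fold change of the members was 0.94 beside 0.04 for all genes. Csf2 and Csf3, at Control means of 0.0820 and 0.480 FPKM, passed the filter of a mean FPKM of at least 1 only through Model and MUS. A rise was thus built into their being tested, and the called count and the median include them. Both genes were also called without this filter. An exact permutation test of 2 libraries against 2 cannot give a p below 0.333, so the calls rest on the spread that limma pooled over genes and groups.

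**Figure D1:**
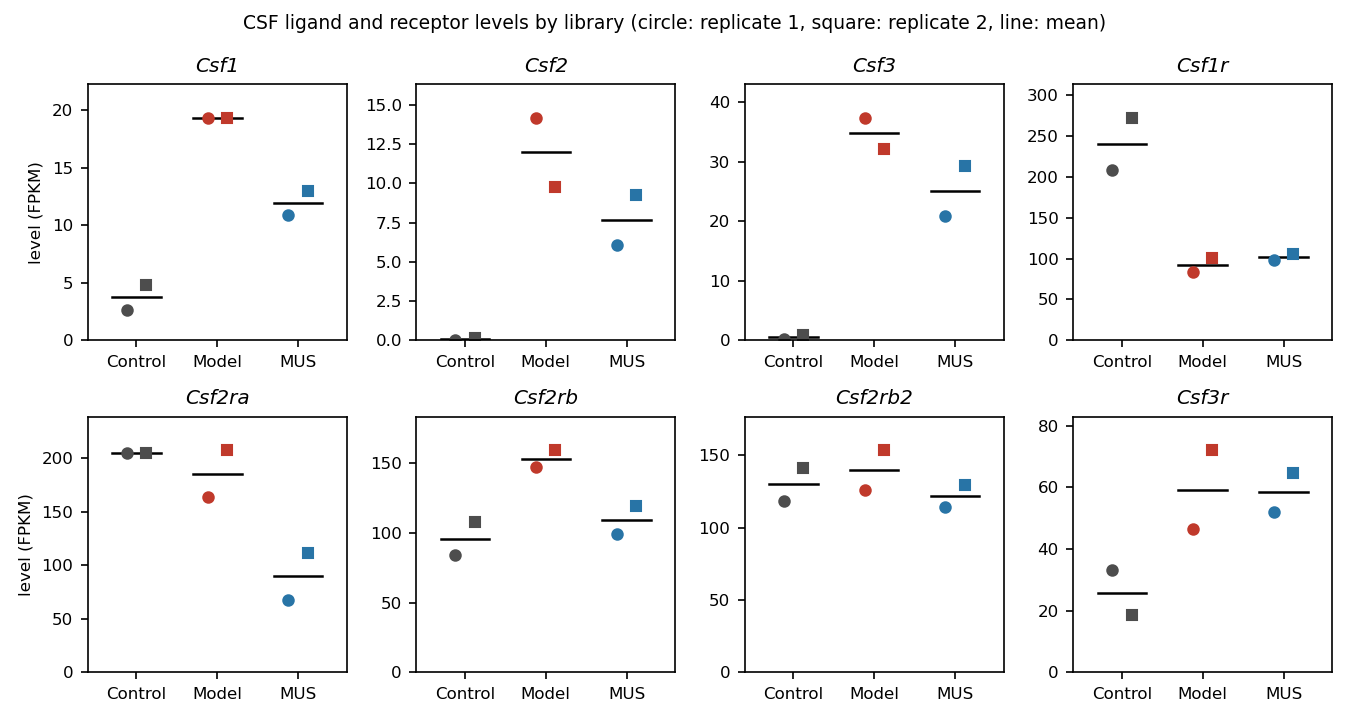
Level in FPKM (vertical axis, linear from 0, a separate scale per gene) of the 8 CSF family genes in Control, Model and MUS. Circles are replicate 1, squares replicate 2 and lines the mean of 2 libraries. Csf2 and Csf3 lie at or below 0.804 FPKM in Control and at 6.04 FPKM or more in the other 4 libraries, while Csf1r is at 208 FPKM or more in Control and at or below 105 FPKM elsewhere.

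Csf3 was at 0.155 and 0.804 FPKM in Control, from 5 and 26 fragments, and at 37.4 and 32.2 FPKM in Model, from 746 and 705 fragments. Every Model library thus stood far above every Control library, by a ratio of 72.3 in pooled fragments at the authors' scale (95% exact counting interval 50.7 to 107, counting error only). The log2 fold change was 4.63 (SE 0.30, limma adjusted p = 0.000959), and 0.592% of tested genes moved further in either direction on this scale. The fold depends on the pseudocount and was 6.18 with a pseudocount of 0.1. Within the labelled batches, which hold 1 library of each group, the log2 differences were 5.06 and 4.20.

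Csf2 was listed at 0 in Control replicate 1 and at 0.164 FPKM in Control replicate 2, which were 0 and 3 fragments. A count of 0 allows up to 3 fragments (one-sided 95% limit), and the Control libraries therefore cannot be told apart. In Model it was at 14.2 and 9.76 FPKM, from 160 and 121 fragments. The ratio of pooled fragments was 145, with a wide 95% exact counting interval of 49.0 to 706 because it rests on 3 Control fragments. The log2 fold change of 3.57 (SE 0.28, limma adjusted p = 0.00117) likewise depends on the pseudocount and became 6.19 with a pseudocount of 0.1. Within batches the log2 differences were 3.92 and 3.21. The antisense partner Gm12223 was at 0 to 0.501 FPKM over the 6 libraries. The gene Il3, 15636 bases from Csf2, was read in Model replicate 1 only, at 0.225 FPKM.

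Csf1 had the highest resting level of the ligand genes, at 2.61 and 4.83 FPKM in Control. It stood at 19.3 FPKM in both Model libraries, 5.19 times the Control mean (log2 fold change 2.15, SE 0.28, limma adjusted p = 0.00499). The groups did not overlap, and the within-batch differences were 2.50 and 1.80. Among the ligands the order thus changed, from Csf1 highest in Control to Csf3 highest in Model and MUS, and in Control the ranges of Csf3 and Csf2 overlapped.

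Csf1r was the most abundant member in Control, at 208 and 272 FPKM, and stood at 83.4 and 101 FPKM in Model. The groups were far apart, with a Model mean at 38.3% of the Control mean (log2 fold change -1.37, SE 0.32, limma adjusted p = 0.0289, within batches -1.31 and -1.43). This call was not robust, since the adjusted p was 0.0994 without Model replicate 1, 0.0507 without Model replicate 2, 0.0947 and 0.0952 without MUS replicates 1 and 2, 0.0921 with only the 2 groups in the fit and 0.107 without the filter on low values. The log2 fold change was between -2.27 and -1.18 in all settings, with -2.27 under quantile normalization. Hmgxb3, which overlaps it, was at 1.07 to 4.37 FPKM.

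The receptor chains of GM-CSF were not called. Csf2ra was at 205 FPKM in both Control libraries and at 164 and 208 FPKM in Model, so that the groups overlapped (log2 fold change -0.15, 95% interval -1.01 to 0.70). This value also depends on the scale, since it was -0.70 with fragment totals, where the groups did not overlap, and -1.06 under quantile normalization (limma adjusted p = 0.0921). Csf2rb was at 83.7 and 108 FPKM in Control and at 147 and 159 FPKM in Model, which did not overlap, with a log2 fold change of 0.68 (SE 0.31, limma adjusted p = 0.172) that was -0.093 under quantile normalization. Csf2rb2 was at 119 and 141 FPKM in Control and at 126 and 153 FPKM in Model (0.10, 95% interval -0.63 to 0.83), and its sign turned to -0.44 with fragment-total scaling. No direction can therefore be given for Csf2rb or Csf2rb2 relative to Control.

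Csf3r was at 33.1 and 18.5 FPKM in Control and at 46.3 and 72.0 FPKM in Model, with no overlap at the authors' scale and an overlap with fragment totals. The log2 fold change was 1.19 (SE 0.38) and missed the threshold at a limma adjusted p of 0.0755 (unadjusted 0.0167). It was 0.66 with fragment-total scaling (limma adjusted p = 0.252) and 0.63 under quantile normalization (0.370). The Control libraries differed widely, and within batches the difference was 0.47 and 1.91. Csf3r is a gene of neutrophils as well as of macrophages, and RNA of a few other cells and a higher level per cell cannot be told apart in bulk samples. The summed level of 10 neutrophil markers, of which 2 passed the filter, was 20.4 to 34.4 FPKM in Control, 61.3 to 114 FPKM in Model and 55.2 to 69.3 FPKM in MUS. It was carried by S100a8 (Model vs. Control log2 fold change 1.90, limma adjusted p = 0.0365). Mmp8, the other marker that passed, went the other way (-0.51, limma adjusted p = 0.265). Ly6g, S100a9, Elane and Retnlg were listed at 0 in all 6 libraries. The part of the neutrophil markers in the Csf3r level was not tested. Of the other cell types, the markers summed to 1.42 to 4.17 FPKM for eosinophils, at most 1.198 for mast cells, 0.753 to 1.87 for B cells and 15.02 to 28.7 for mesothelial cells and fibroblasts. The 6 dendritic cell markers summed to 1.52 to 2.50 FPKM in Control, 7.24 to 7.33 in Model and 5.82 to 8.35 in MUS. Ccr7, the highest in Model and MUS and the only 1 to pass the filter, rose in Model vs. Control (log2 fold change 1.97, limma adjusted p = 0.00683). It was at 0.398 and 0.884 FPKM in Control and passed the filter only through Model and MUS. Cd209a, the highest in Control at 0.746 and 1.10 FPKM, was lower in Model, at 0.403 and 0.408 FPKM. The part of these markers in the levels of the family was not tested. Those of T and innate lymphocytes were carried by Il7r at 73.2 to 163 FPKM, while Cd3e, Cd3g, Cd2, Ncr1, Klrb1c and Gzma were at 0 to 0.163 FPKM. Of the mesothelial cell and fibroblast markers, Col1a1 and Col1a2 were the highest, and Msln, Upk3b, Krt19 and Wt1 were at or below 0.565 FPKM.

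Ratios of 2 members within a library do not depend on how libraries are scaled. Csf2rb stood at 0.706 and 0.765 times Csf2rb2 in Control, at 1.17 and 1.04 times in Model and at 0.870 and 0.918 times in MUS. No 2 groups overlapped. The size of this ratio depends on the exon lengths in FPKM, 7277 bases for Csf2rb and 4740 for Csf2rb2. In fragments Csf2rb was the higher in every library, with 13929 and 17934 against 12853 and 15278 in Control. Which copy was more abundant in Control is therefore not settled. Csf3r stood at 15.9% and 6.78% of Csf1r in Control, at 55.5% and 71.6% in Model and at 53.1% and 61.4% in MUS. For this ratio MUS and Model overlapped, and both lay apart from Control. The Csf1 transcript was 1.25% and 1.77% of that of its receptor in Control, compared with 23.2% and 19.2% in Model and with 11.1% and 12.3% in MUS. With 2 libraries a group, each of these separations has the smallest exact permutation p the design allows, 0.333 (two-sided).

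**Figure D2:**
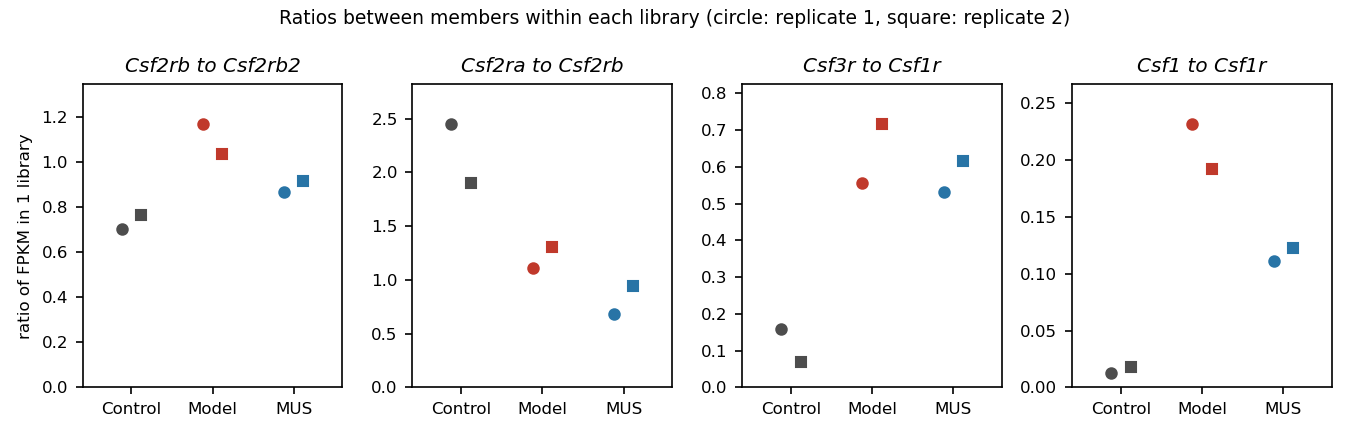
Ratio of 2 members' FPKM within each library (vertical axis, linear from 0) in Control, Model and MUS, with circles for replicate 1 and squares for replicate 2. The ratio of Csf2rb to Csf2rb2 was below 0.8 in both Control libraries and above 1 in both Model libraries, and the ratio of Csf2ra to Csf2rb was highest in Control and lowest in MUS.

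The abundance order of the receptor chains also shifted. In Control it was Csf1r, Csf2ra, Csf2rb2, Csf2rb and Csf3r from the highest to the lowest mean, with means of 240, 205, 130, 95.7 and 25.8 FPKM. No neighbouring pair overlapped in its library values, but the lower Csf1r value, 208 FPKM, was close to the higher Csf2ra value, 205 FPKM. In Model, Csf2ra was the highest at a mean of 186 FPKM and Csf1r had moved to the fourth place at 92.0 FPKM, while Csf2rb and Csf2rb2 overlapped. In MUS the values of Csf2rb2, Csf2rb, Csf1r and Csf2ra overlapped from neighbour to neighbour, with means of 122, 109, 102 and 89.7 FPKM, and Csf3r lay below them at 58.4 FPKM. The order of Csf2rb and Csf2rb2 depends on the exon lengths, since Csf2rb had more fragments than Csf2rb2 in every library.

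Muscone given after priming was compared with Model to ask whether the family differed in its presence. No member was called (0% of all genes tested), and 1 of 8 had an unadjusted p under 0.05, where 8.42% of all genes did (5.81% in the lower direction, which is that of the member). The MUS values lay below the Model values without overlap for 5 members, Csf1, Csf2, Csf3, Csf2ra and Csf2rb, where 42.1% of all genes did not overlap and 21% were lower in this way. The median log2 difference of the members was -0.48, beside 0.01 for all genes.

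The largest of these differences was that of Csf2ra, the GM-CSF-specific chain. It was at 67.5 and 112 FPKM in MUS against 164 and 208 FPKM in Model, so that the MUS mean was 48.3% of the Model mean. The log2 difference was -1.08 (95% interval -1.93 to -0.22, limma adjusted p = 0.475, unadjusted 0.0205), and within batches it was -1.27 and -0.89. It was -0.72 without MUS replicate 1 and -1.44 without MUS replicate 2. Csf2ra was 1.11 and 1.30 times Csf2rb in Model and 0.680 and 0.940 times in MUS, and 2.45 and 1.90 times in Control.

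The ligands in MUS lay between Control and Model. Csf1 was at 10.9 and 12.9 FPKM, a mean 38.3% below that of Model (log2 difference -0.66, 95% interval -1.33 to 0.01). Csf2 was at 6.04 and 9.23 FPKM, 36.2% below (-0.59, -1.25 to 0.07), and the nearest Model library, at 9.76 FPKM, was close. Csf3 was at 20.9 and 29.3 FPKM, 27.9% below (-0.47, -1.19 to 0.24). Within batches the differences were -1.11 and -0.07 for Csf2, -0.81 and -0.13 for Csf3 and -0.77 and -0.54 for Csf1, so that those of Csf2 and Csf3 were close to 0 in batch 2. With single libraries left out, Csf2 ranged from -0.86 without MUS replicate 2 to -0.32 without MUS replicate 1, and was -0.34 without Model replicate 1. Csf3 ranged from -0.71 without MUS replicate 2 to -0.24 without MUS replicate 1. The 95% intervals of the 3 ligands include 0 and also reach beyond -1, and the limma adjusted p values ran from 0.604 to 0.734. The proportion of Csf3 to Csf2 was 2.64 and 3.30 in Model and 3.46 and 3.18 in MUS, which overlapped.

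Among the other receptor chains, Csf2rb was at 99.2 and 119 FPKM in MUS (log2 difference from Model -0.49, 95% interval -1.22 to 0.24), Csf2rb2 at 114 and 130 FPKM (-0.19, -0.92 to 0.54), Csf1r at 98.0 and 105 FPKM (0.15, -0.60 to 0.89) and Csf3r at 52.0 and 64.7 FPKM (0.01, -0.90 to 0.91). The last 3 overlapped with Model.

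MUS was also compared with Control, and this comparison shares its Control libraries with Model vs. Control and its MUS libraries with MUS vs. Model. It called 5 of 8 members, 3 higher and 2 lower, against 20.2% of all genes (11.3% higher and 8.91% lower), and 6 of 8 did not overlap, 4 higher and 2 lower, against 73.3% of all genes (39.6% higher and 33.8% lower). With fragment totals 4 members lay higher and 4 lower without overlap, against 21% and 57.2% of all genes. These counts again include Csf2 and Csf3, which passed the filter only through Model and MUS. Csf3 was higher by a log2 fold change of 4.16 (limma adjusted p = 0.00107), Csf2 by 2.98 (0.00154) and Csf1 by 1.49 (0.0122). Csf1r was lower at -1.22 (limma adjusted p = 0.0328) and Csf2ra at -1.23 (0.0480). Csf3r, at 2.26 times the Control mean, missed the threshold at 1.196 (limma adjusted p = 0.0602), and the values were 0.19 for Csf2rb and -0.09 for Csf2rb2.

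The calls of Csf2 and Csf3 in MUS vs. Control held under all 16 alternatives, whereas those of the other 3 were lost in some settings. Without the filter on low values the adjusted p was 0.0714 for Csf1, 0.105 for Csf1r and 0.159 for Csf2ra, and with a pseudocount of 0.1 it was 0.0503 for Csf2ra. The adjusted p of Csf2ra was 0.0543 with the batch as a replicate block, 0.360 without MUS replicate 1, 0.103 without MUS replicate 2, 0.109 and 0.0734 without Control replicates 1 and 2, and 0.0520 and 0.0513 without Model replicates 1 and 2. Csf1 was at an adjusted p of 0.0916 and 0.0893 without MUS replicates 1 and 2, and Csf1r at 0.243 and 0.165, with 0.0573 without Control replicate 2. Without MUS replicates 1 and 2 the log2 fold changes stayed close, at 1.60 and 1.37 for Csf1 and at -1.17 and -1.27 for Csf1r. The family count of 5 was 3 without Control replicate 2 and 2 without either MUS replicate. The log2 fold change of Csf3r was 1.60 without Control replicate 1, the only setting in which it was called, and 0.79 without Control replicate 2. It was 0.67 with fragment-total scaling (limma adjusted p = 0.238) and 0.67 under quantile normalization (0.320).

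**Figure D3:**
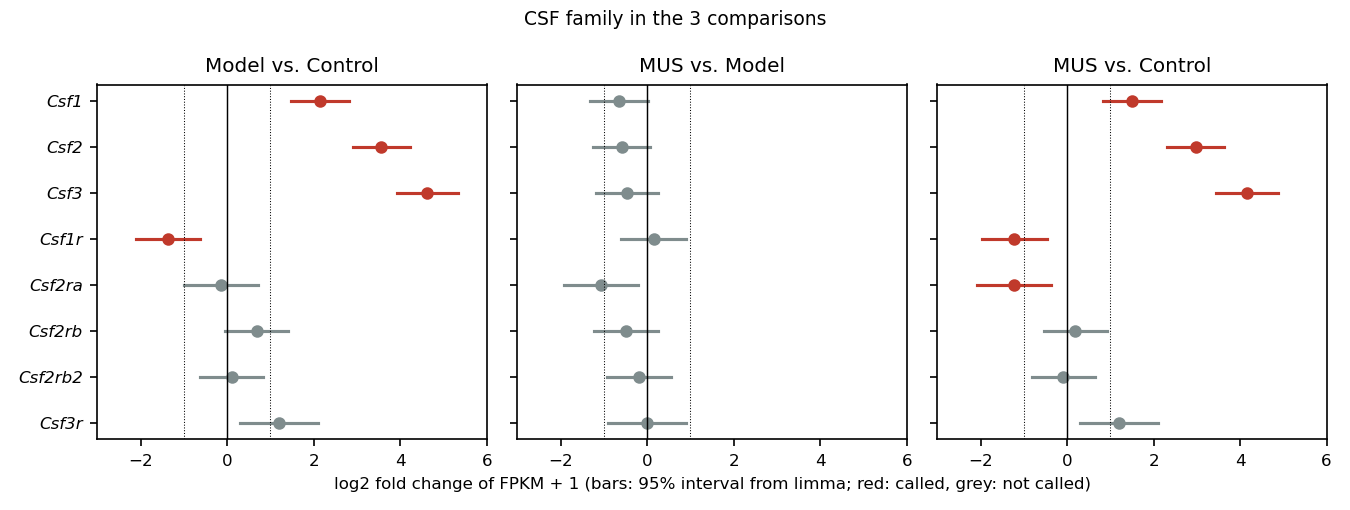
Log2 fold change on the log2(FPKM + 1) scale (horizontal axis) of the 8 members in Model vs. Control, MUS vs. Model and MUS vs. Control, with 95% intervals from limma as bars, called members in red and others in grey. Csf1, Csf2 and Csf3 lie to the right of 1 in both comparisons with Control, Csf1r lies to the left of -1 in both, and Csf2ra lies to the left of -1 in both comparisons of MUS, where it is called against Control alone.

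The other genes of the pathway were counted in 6 lists of 65 genes, of which 57 passed the filter. In Model vs. Control 15 rose, 7 fell and 35 were not called, where 9.5% of all genes tested rose and 5.56% fell. In MUS vs. Model 0 were called, and 6 of 57 had an unadjusted p under 0.05, near the 8.42% of all genes. In MUS vs. Control 14 rose, 9 fell and 34 were not called, where 11.3% of all genes rose and 8.91% fell. The counts of each list are read beside these shares, and the lists are small. Cish and Ccl17 lay below 1 FPKM in both Control libraries and passed the filter only through Model and MUS.

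Of the 5 related ligands and receptor chains, only Il3ra, the alpha chain of the IL-3 receptor, passed the filter. Il34, the second ligand of CSF1R, was read in Control replicate 1 alone (0.335 FPKM). Il3ra was at 23.5 and 22.0 FPKM in Control, 39.5 and 23.6 FPKM in Model and 5.22 and 13.7 FPKM in MUS. MUS lay below both other groups without overlap, as for Csf2ra, with a log2 difference from Model of -1.72 (SE 0.45, limma adjusted p = 0.397, unadjusted 0.00608).

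Of the 23 signal transducers, 7 rose and 1 fell in Model vs. Control, with a median log2 fold change of 0.46 beside 0.04 for all genes (9.5% and 5.56% of which rose and fell). Jak2, the kinase bound to CSF2RB, was at 9.77 and 38.3 FPKM in Control and 160 and 223 FPKM in Model (log2 fold change 3.21, limma adjusted p = 0.0142). The tyrosine kinase gene Src rose by 2.68, and Plcg2, a phospholipase C, fell by 1.13 on the log2 scale. In MUS vs. Control 7 rose and 2 fell, with Jak2 at 3.54, Lyn at 2.39, Mapk3 at -1.63 and Akt1 at -1.33. In MUS vs. Model 0 of 23 were called.

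Of the 10 tested brakes on receptor signalling, 3 rose and 2 fell in Model vs. Control, beside 9.5% and 5.56% of all genes. Socs3, the inhibitor that binds the G-CSF receptor, was at 3.30 and 13.6 FPKM in Control, 380 and 374 FPKM in Model and 102 and 169 FPKM in MUS. Relative to Control, its log2 fold change of 5.58 in Model (limma adjusted p = 0.00255) compared with 4.07 in MUS (0.00496). The difference of MUS from Model was -1.51 (limma adjusted p = 0.537, unadjusted 0.0341). Socs1, an inhibitor of JAK kinases, was at 11.99 and 9.90 FPKM in Model and 2.46 and 3.13 FPKM in MUS (log2 difference -1.65, limma adjusted p = 0.257, unadjusted 0.000326). Cish, an inhibitor induced by STAT5, rose by 2.66 in Model and by 2.34 in MUS relative to Control. The phosphatase gene Inpp5d (SHIP1) was at -1.90 in Model vs. Control and at -1.78 in MUS vs. Control, and the adaptor gene Dok2 at -1.12 and -2.01. Dok1, a related adaptor, was called in MUS vs. Control alone (-1.56), and its difference between MUS and Model was -1.503 (limma adjusted p = 0.299).

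Of the 8 tested transcription factors known to act on the receptor genes, 0 rose and 2 fell in Model vs. Control, beside 9.5% and 5.56% of all genes. Cebpa, a myeloid factor that activates Csf3r, was at 152 and 68.4 FPKM in Control, 11.4 and 10.9 FPKM in Model and 4.54 and 6.33 FPKM in MUS (log2 fold change in Model vs. Control -3.09, limma adjusted p = 0.00462). Fli1, an ETS factor, fell by 1.51. In MUS vs. Control Cebpa was at -4.02, Fli1 at -1.40 and Ets2 at 2.84, all called.

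Of the 9 genes of proteins that act on mRNA decay and stability, 3 rose and 1 fell in Model vs. Control, beside 9.5% and 5.56% of all genes. Zfp36 (tristetraprolin), which promotes the decay of ATTTA-bearing transcripts such as Csf2, was at 33.3 and 17.1 FPKM in Control and 129 and 123 FPKM in Model (2.35, limma adjusted p = 0.00849). The ribonuclease gene Zc3h12a (Regnase-1) was at 2.57, Elavl1, which encodes the stabilizing protein HuR, at 1.06 and the relative of Zfp36, Zfp36l2, at -1.81, all called. In MUS vs. Control Zc3h12a was at 2.63, Zfp36 at 2.27 and Zfp36l2 at -2.38, and no member of the list was called in MUS vs. Model.

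Of the 6 tested response genes of CSF1 or GM-CSF, 2 rose and 1 fell in Model vs. Control, beside 9.5% and 5.56% of all genes. The kinase gene Pim1 was at 1.67 and the chemokine gene Ccl17 at 1.42. Pparg, which GM-CSF is known to induce in alveolar macrophages, was at 24.2 and 9.31 FPKM in Control and 2.74 and 2.08 FPKM in Model (-2.25, limma adjusted p = 0.0124). In MUS vs. Control Pim1 was at 1.07 and Pparg at -2.16, and both were called.

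**Figure D4:**
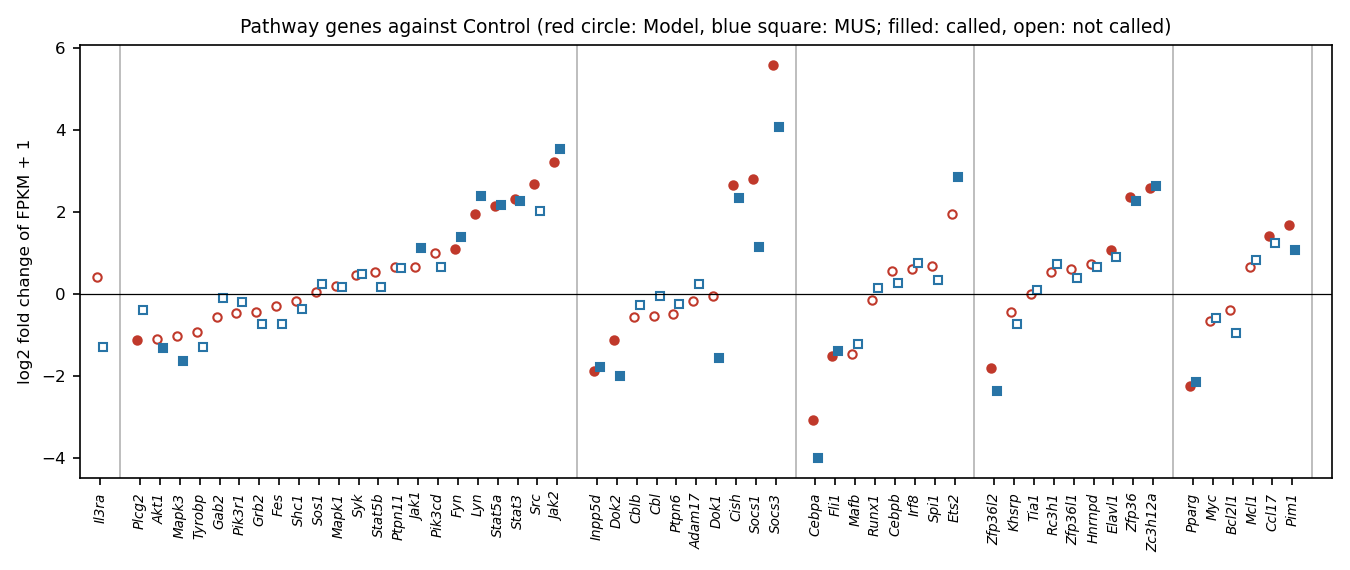
Log2 fold change on the log2(FPKM + 1) scale (vertical axis) of the tested pathway genes except 1, relative to Control, for Model (red circles) and MUS (blue squares), with filled symbols where called. Grey lines divide the 6 lists, from left to right related receptor chains, signal transducers, brakes, transcription factors, decay proteins and response genes. Socs3 is the highest point at 5.58 in Model and Cebpa the lowest at -4.02 in MUS.

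The genes whose pattern over the 6 libraries was closest to each member were found from the root mean square distance between log2(FPKM + 1) values centred on each gene's own mean. For Csf1 they were Fcrlb and Tagap (distances 0.10 and 0.13), for Csf2 Ier3 and Ifitm1 (0.17 and 0.19), and for Csf3 Upp1 and Ptgs2os2 (0.25 and 0.26). For Csf1r they were Gm20658 and Sec22c (0.12 and 0.12), and for Csf2ra Tsc22d4 and Shkbp1 (0.12 and 0.14). Atp13a1 and Irak2 were nearest to Csf2rb (0.09 and 0.09), Capn10 and Clptm1 to Csf2rb2 (0.04 and 0.07), and Tbc1d9 and Hook2 to Csf3r (0.16 and 0.21). Ier3, for example, was at 12.4 and 19.4 FPKM in Control, 209 and 143 FPKM in Model and 105 and 123 FPKM in MUS, while Tsc22d4 was at 5.504 and 5.02, 4.08 and 4.31, and 1.28 and 2.34 FPKM. The pseudocount of 1 compresses values near 0, so a small distance does not mean an equal ratio between groups. Csf2 was at 0 and 0.164 FPKM in Control and at 14.2 and 9.76 FPKM in Model. Gm20658 lay at only 0.563 to 4.34 FPKM over the 6 libraries. Csf2 and Csf3 had no neighbour as close as that of Csf2rb2, whose level hardly varied at the authors' scale.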

How the data were processed

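Poly(A) RNA sequencing of 6 macrophage libraries was analysed from 1 deposited table of FPKM, computed by the authors. The study's methods name RSEM, and the submitters' processing notes name HISAT2, featureCounts v1.5.0-p3 and GRCm39, whereas 98.3% of 54495 gene identifiers had the GRCm38 positions of GENCODE M21. Parameters are not given in the sources used here. FPKM times exon length gave whole fragments at 1 scale per library (tolerance 0.1). The 9794 genes whose FPKM averaged 1 or more were tested on log2(FPKM + 1) with limma 3.58.1 (R 4.3.3; trend, 3 groups, two-sided), with Benjamini-Hochberg adjustment over all of them. A call took an adjusted p no higher than 0.05 together with a log2 fold change beyond 1 either way. The script was tested on simulated data. Replicate numbers follow the labelled batch. Deviations of same-numbered libraries correlated at 0.12 (Control and Model), 0.14 (Model and MUS) and -0.09 (Control and MUS), and the block was fitted as an alternative. Named genes were the members, the 3 largest called increases and decreases of each list and the 2 nearest genes of each member. The result for 1 gene of the lists is not reported here. Members and lists were chosen with earlier results of these data known. Counting intervals (95%) and the limit of 3 fragments cover counting error only. Sequences were handled with Python 3.11.15 and Biopython 1.88.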

Additional observations from a re-analysis of the deposited data

How the results depend on the processing

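Each of 24 member comparisons was refitted in 16 alternative settings. Csf1, Csf2 and Csf3 in Model vs. Control and Csf2 and Csf3 in MUS vs. Control were called in all 16. Where a call was lost or gained or a sign turned, the cause was not tested. The family count in MUS vs. Control was 2 without the filter on low values and 2 to 5 when single libraries were left out. The count of all genes called was 260 in Model vs. Control and 456 in MUS vs. Control without the filter, 2734 and 3144 with voom on recovered fragments, and 797 in Model vs. Control with only the 2 groups in the fit. Leaving out single libraries gave 692 to 2077, 184 to 2398 and, in MUS vs. Model, 0 to 31. MUS vs. Model had 1 gene with a pseudocount of 0.1, 7 with only the 2 groups and 4 with the replicate block. Apart from Csf2ra in MUS vs. Control (log2 fold change -1.23, limma adjusted p = 0.0543), the replicate block changed no call of a member. Signs turned for Csf2rb in Model vs. Control (-0.093, quantile normalization) and in MUS vs. Control (-0.34 with fragment-total scaling, -0.34 with voom, -0.50 with quantile normalization). They turned for Csf2rb2 in Model vs. Control (-0.44, -0.44 and -0.74 in the same settings) and, summed with Csf2rb, in MUS vs. Control (0.068). With single libraries left out, the log2 fold changes ranged from -0.32 to 0.018 for Csf2ra and -0.041 to 0.25 for Csf2rb2 in Model vs. Control, from -0.21 to 0.037 for Csf2rb2 in MUS vs. Control and from -0.31 to 0.32 for Csf3r in MUS vs. Model. Groups of 2 libraries and the 0 to 3 Control fragments of Csf2 limit the precision.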
